A study of Mus musculus with 12 samples.

Results

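The 50 genes described here encode the machinery that starts and carries out DNA synthesis, together with the E-type cyclins that drive entry into S phase. They were taken by mouse gene symbol as a fixed list of origin licensing, replication fork, nucleotide supply and G1/S E2F target genes. The list was chosen with earlier results of these data known. Each of the 50 symbols matched exactly 1 of the 37991 Ensembl gene identifiers that were counted, and all 50 were expressed highly enough to be tested among 15327 genes. They were arranged in 9 roles, from origin recognition to the E-type cyclins.

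RNA-seq was performed on primary mouse embryonic fibroblasts (MEFs), the mixed fibroblast cultures grown from whole mid-gestation embryos. The wild-type MEFs were compared with MEFs homozygous for the E2f1 3KR knock-in allele, in which the lysines of E2F1 that become acetylated after DNA damage are replaced by arginine. All MEFs were of strain FVB, were isolated from embryos at 13.5 days from crosses of heterozygous or homozygous mice, and were grown in 5% oxygen to passage 3. They were left untreated or were given neocarzinostatin (NCS), which breaks DNA as ionizing radiation does, at 250 ng/ml for 3 h. This gave 4 groups of 3 samples: untreated wild-type, NCS-treated wild-type, untreated 3KR and NCS-treated 3KR. The labels do not say whether the 3 samples of a group came from separate embryos or cultures, so p-values measure only the spread between these samples, which may be technical.

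A replication origin is licensed when the origin recognition complex (ORC), with CDC6 and CDT1, loads the MCM2-7 helicase onto DNA. In S phase the helicase is switched on by CDC45 and GINS, and the primase, polymerases, sliding clamp and ligase copy the strands behind it. Many of the genes for these proteins are textbook targets of the E2F factors, which are held in check by RB and its relatives until late G1, so the mRNAs of this group are commonly read as a marker of cells passing from G1 into S phase.

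The depth of the samples ran from 33203757 to 45279321 counted reads. A gene at 3 counts, taken as the floor, would stand at 0.0663 to 0.0904 CPM (counts scaled by the library total), and the members other than Fen1 had between 140 and 8440 raw counts in every sample. Wild-type replicate 3 stood apart from replicates 1 and 2 in both treatments. A chi-square test of counts gave 7.34 to 9.14 per gene for its pairs, compared with 2.02 to 2.29 for all other pairs of replicates. Results that rest on it are therefore given with and without it. E2f1 mRNA, which carries the mutated codons in 3KR MEFs, was 1146 ± 133 normalized read counts in untreated wild-type and 1121 ± 9.31 in untreated 3KR MEFs (SD, n = 3) and does not by itself check the genotype. All 12 fibroblast markers examined passed the expression filter, which was applied to the 12 samples together. Their levels differed between genotypes: 10 were higher and 2 lower in 3KR MEFs without treatment, and 9 were higher and 2 lower after NCS. The wild-type MEFs expressed the Y-linked gene Ddx3y, at a mean of 5513 normalized read counts without treatment against 11.1 in 3KR MEFs, and the 3KR MEFs expressed Xist, at 30612 against 45, so genotype cannot be told apart from the sex of the cultures. All 10 macrophage markers were higher in 3KR MEFs. Without treatment they had a summed level of 8081 to 8146 normalized read counts per sample against 3893 to 4551, and 7 of 10 Schwann cell and neural crest markers were lower, with a summed level of 1951 to 2002 against 8927 to 9180. The part of these cell types and of sex in the differences between genotypes was not tested. In bulk samples, more cells in S phase and more RNA of a gene per cell cannot be told apart.

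The DNA around the start sites of the members was examined first. The list was chosen by gene names and not by sequence, although it includes genes known as E2F targets. RefSeq start-site windows (GRCm38.p6), from 250 bases before to 50 after each start, were at hand for 41 of the 50 members. The words TTTCCCGC, TTTCGCGC, TTTGCCGC and TTTGGCGC, the classical 8-base forms bound by E2F, were searched on both strands. At least 1 of them was present in 17 of the 41 members (41.5%), compared with 2.6% of all 27025 RefSeq genes with a window and 4.51% of the 11127 such genes that were tested here. The CCAAT word was found in 63.4% of the members and in 42.6% of the tested genes, whereas TTTGAA, a core of the cell cycle homology element of G2/M genes, was found in 14.6% and 14.2%. A match is a description of the sequence and not evidence of binding. The following stretches of the windows all lie before the start site and are read 5′ to 3′ along the gene. They are a selection of those that hold the E2F words of licensing, helicase, polymerase and methylation genes whose levels are given in the later paragraphs. The stretch of Uhrf1, with its word 185 bases before the start, and that of a further word of Mcm6 are not shown. Capitals mark the word or its reverse complement.
Orc1 (chr4:108579411-108579450, plus strand): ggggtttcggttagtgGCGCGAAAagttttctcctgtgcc
Cdc6 (chr11:98907997-98908036, plus strand): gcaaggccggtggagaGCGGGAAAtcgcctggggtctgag
Mcm5 (chr8:75109340-75109383, plus strand): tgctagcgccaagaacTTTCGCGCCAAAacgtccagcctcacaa
Mcm6 (chr1:128359788-128359831, minus strand): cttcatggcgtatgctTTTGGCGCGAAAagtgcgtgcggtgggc
Mcm7 (chr5:138172025-138172064, minus strand): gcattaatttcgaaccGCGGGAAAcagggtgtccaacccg
Gins3 (chr8:95633502-95633541, plus strand): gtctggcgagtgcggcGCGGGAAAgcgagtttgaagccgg
Pola1 (chrX:93632270-93632309, minus strand): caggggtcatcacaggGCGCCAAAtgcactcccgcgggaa
Dnmt1 (chr9:20952819-20952858, minus strand): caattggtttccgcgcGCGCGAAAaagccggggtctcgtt

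In Mcm5 and Mcm6 a word on each strand overlapped the other, so that the capitals run over 12 bases. The first capital lay 27 bases before the RefSeq start in Orc1 and 41 bases before it in Gins3, compared with 110 in Mcm6, which held a further word 47 bases before the start, 138 in Cdc6 and Pola1, 153 in Mcm5, 165 in Mcm7 and 219 in Dnmt1. Mcm7 and Dnmt1 also held a word downstream, with its first base 16 and 33 bases after the start. Some members have several RefSeq starts, and the words of Dnmt1 lay only in its window 3. Other members, such as Cdt1, Mcm3, Mcm8, Pold1 and Pold3, held their words only downstream of the start. Of the 17 members with a word, 15 were higher in untreated 3KR than in untreated wild-type MEFs, with a median log2 fold change of 0.36, as were 17 of the 24 members whose window held no word, with a median of 0.27. After NCS the counts were 17 of 17 and 19 of 24, with medians of 0.46 and 0.31. Of the 9 members without a window, 6 were higher without treatment and 8 after NCS, with medians of 0.295 and 0.31. Among all tested genes, 22.1% were higher without treatment and 22.9% after NCS (edgeR, adjusted p under 0.05, as for the members). Whether the words bear on these differences was not tested.

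**Figure D1:**
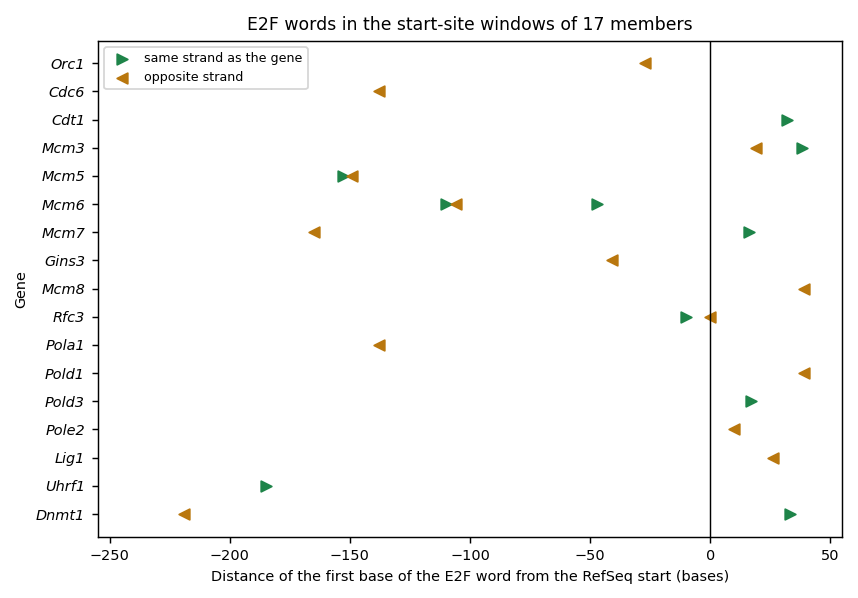
Position of each E2F word in the start-site windows of the 17 members that hold one. The x axis gives the distance of the first base of the word from the RefSeq start in bases, each row is a gene, and triangles pointing right or left mark words on the strand of the gene or on the opposite strand. Words lie on either side of the start, and several genes hold more than 1.

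The main pattern in the data was a difference between genotypes. In untreated MEFs, 38 of the 50 members were higher and 1 was lower in 3KR than in wild-type MEFs, at a Benjamini-Hochberg adjusted p under 0.05 in edgeR's quasi-likelihood test, where 22.1% of all tested genes were higher and 23.6% lower (45.7% in all). The differences were small: the median log2 fold change was 0.29 (all tested genes, 0.00) and the members ranged from -0.19 in Ccne1 to 0.49 in Chaf1b, which is 1.41-fold. After NCS, 44 members were higher and 1 was lower, where 22.9% of all tested genes were higher and 23.6% lower (46.5% in all), and the median was 0.37, with Gmnn the highest at 0.61 (1.52-fold). All 38 members that were higher without treatment were also higher after NCS, in 6 other samples. Whether those came from the same cultures as the untreated samples is not stated, so they are not shown to be an independent repeat. The lower member was Ccne1 in both treatments, joined by Rpa3 and Ccne2 when untreated wild-type replicate 3 was left out. The members not called after NCS were Orc2, Orc6, Rpa1, Fen1 and Ccne2. No overlap between the groups was seen for 37 higher members without treatment and 44 after NCS, where 26.9% and 27% of all tested genes were higher without overlap.

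NCS changed 10 members in wild-type MEFs. There 5 members rose (Rrm2, Mcm7, Orc1, Mcm10 and Cdt1) and 5 fell (Pold1, Orc2, Mcm8, Uhrf1 and Rfc1), where 14.3% of all tested genes rose and 12.4% fell (26.7% in all), so that the members' share was not above the background. With the culture as a block 6 rose and 8 fell. When counts were scaled by library totals in place of TMM, which moves the median of all genes by -0.04 on the log2 scale, 3 members rose and 11 fell, and the split of all genes went from 2189 higher and 1901 lower to 1464 and 2885. These counts rested on single samples: 6 members were called without untreated replicate 2, 2 rose without NCS-treated replicate 2, 2 fell without NCS-treated replicate 1, and 8 rose without replicate 3 in both treatments. In 3KR MEFs, 12 members rose and 4 fell, where 15.8% of all tested genes rose and 15% fell (30.8% in all). In both directions together 16 of the 50 members were called, a share near the background. With library totals 8 rose and 4 fell, and with only the samples compared 17 rose and 4 fell. In 3KR MEFs 2 members fell without untreated replicate 3 or without NCS-treated replicate 2. In terms of single samples, the median over the 50 members of the log2 ratio to the untreated wild-type mean was -0.02 to 0.02 in untreated and -0.03 to 0.02 in NCS-treated wild-type samples, compared with 0.27 to 0.32 in untreated and 0.29 to 0.33 in NCS-treated 3KR samples. Every 3KR sample was therefore above every wild-type sample in this median, whereas treated and untreated samples of a genotype overlapped.

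**Figure D2:**
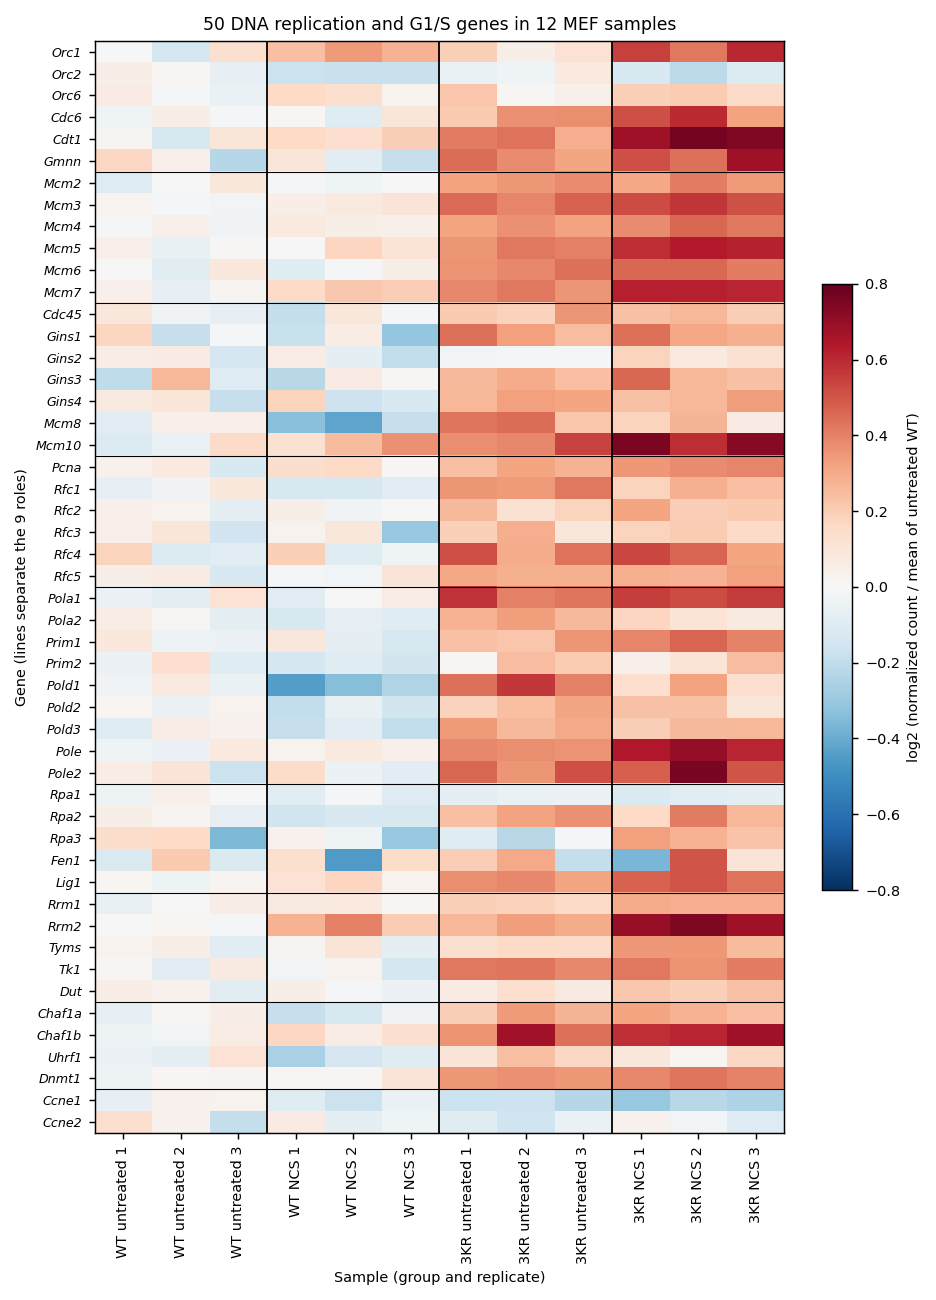
Levels of the 50 members in the 12 samples. Each row is a gene, each column a sample, and the colour is the log2 ratio of the normalized read count to the mean of the 3 untreated wild-type samples, with horizontal lines between the 9 roles. The 6 columns of 3KR MEFs are mostly red, with medians of 0.27 to 0.33, while Orc2, Rpa1, Ccne1 and Ccne2 are not.

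The 6 genes of origin recognition and loading behaved unequally. ORC1 is the ORC subunit whose level follows the cell cycle, ORC2 and ORC6 are more constant subunits, CDC6 and CDT1 load the helicase, and geminin (Gmnn) blocks CDT1 after origins have fired. Orc1 stood at 319, 288 and 348 normalized read counts in untreated and 376, 403 and 386 in NCS-treated wild-type MEFs, and at 363, 329 and 346 in untreated and 465, 426 and 484 in NCS-treated 3KR MEFs. Treated and untreated samples did not overlap in either genotype, while the untreated genotypes did. NCS raised Orc1 by 0.28 ± 0.08 (log2 fold change ± SE, adjusted p = 0.0118) in wild-type and by 0.41 ± 0.08 (adjusted p = 0.0004) in 3KR MEFs, although the first call was lost without untreated replicate 2 (adjusted p = 0.0765) or NCS-treated replicate 2 (0.053). Between genotypes, Orc1 differed by 0.11 ± 0.08 without treatment, which did not pass, and by 0.24 ± 0.08 after NCS (adjusted p = 0.0167), a call that was lost without NCS-treated wild-type replicate 1 (0.055) or NCS-treated 3KR replicate 1 (0.0502) or 3 (0.0824).

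Cdt1 moved with both genotype and NCS. Its normalized read counts were 925, 833 and 975 in untreated and 1019, 998 and 1045 in NCS-treated wild-type MEFs, and 1211, 1229 and 1114 in untreated and 1456, 1547 and 1524 in NCS-treated 3KR MEFs. The 4 groups followed each other without overlap. NCS raised Cdt1 in 3KR MEFs by 0.35 ± 0.05 (adjusted p = 2.65e-05), and 3KR exceeded wild-type MEFs by 0.37 ± 0.06 (adjusted p = 8.57e-06) without treatment and by 0.56 ± 0.06 (adjusted p = 1.18e-08) after NCS. The rise in wild-type MEFs was smaller, 0.16 ± 0.06 (adjusted p = 0.043), and was not called when any single wild-type sample other than untreated replicate 3 was left out (adjusted p from 0.0611 to 0.251), nor with library totals (0.151), at least 10 counts (0.0565) or only the samples compared (0.122).

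Cdc6 and Gmnn were higher in 3KR than in wild-type MEFs in both treatments, Cdc6 by 0.32 and then 0.48 and Gmnn by 0.37 and then 0.61 on the log2 scale. Neither passed the test for NCS in either genotype, although in 3KR MEFs Cdc6 passed without NCS-treated replicate 3 (adjusted p = 0.0342) and Gmnn with only the samples compared (0.0476). Orc2 showed the opposite pattern, with 1587, 1556 and 1473 normalized read counts in untreated and 1365, 1360 and 1362 in NCS-treated wild-type MEFs, and 1483, 1500 and 1622 followed by 1416, 1334 and 1424 in 3KR MEFs. Treated samples lay below untreated samples in both genotypes and the genotypes overlapped. Orc2 fell by 0.18 on the log2 scale after NCS in wild-type MEFs (SE 0.05, adjusted p = 0.00599) and by 0.14 in 3KR MEFs on that scale (SE 0.05, adjusted p = 0.0282), the latter not without untreated 3KR replicate 3 (0.187) or NCS-treated 3KR replicate 2 (0.138). Of the exonic bases of Orc2, 1150 overlap Nif3l1 on the opposite strand, and whether the counting used strand is not stated. Orc6 passed the test in no comparison, except for NCS in 3KR MEFs without untreated replicate 1 (0.0471).

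The mRNAs of the 6 subunits of the MCM2-7 helicase moved as a block. All 6 were higher in 3KR MEFs without treatment, within a narrow range of log2 fold changes from 0.33 in Mcm4 to 0.43 in Mcm3, and all 6 were higher after NCS, from 0.37 in Mcm4 to 0.52 in Mcm5. No member of the complex overlapped between genotypes in either treatment. Mcm3, the member with the lowest p in both comparisons, had 2115, 2058 and 2042 normalized read counts in untreated and 2146, 2191 and 2230 in NCS-treated wild-type MEFs. The same gene had 2832, 2719 and 2877 in untreated and 2979, 3081 and 2954 in NCS-treated 3KR MEFs. The lowest 3KR sample was above the highest wild-type sample in each treatment, and Mcm3 differed by 0.43 ± 0.04 (adjusted p = 8.99e-10) without treatment, which is 1.35-fold, and by 0.46 ± 0.04 (adjusted p = 4e-10) after NCS.

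Mcm7, whose intron also carries a group of microRNAs, was the helicase subunit that NCS raised in both genotypes. It stood at 2422, 2255 and 2400 in untreated and 2621, 2734 and 2702 in NCS-treated wild-type MEFs, and at 3083, 3155 and 3020 followed by 3626, 3632 and 3600 in 3KR MEFs. The 4 groups did not overlap. The rise was 0.18 ± 0.04 (adjusted p = 0.000596) in wild-type and 0.23 ± 0.04 (adjusted p = 2.39e-05) in 3KR MEFs, and it was called in every alternative tried. Mcm5 rose after NCS in 3KR MEFs by 0.22 ± 0.04 (adjusted p = 0.000223), from 2551, 2667 and 2636 to 3005, 3093 and 3053 normalized read counts, and changed by 0.09 ± 0.04 in wild-type MEFs, which did not pass (adjusted p = 0.121) except without NCS-treated replicate 1 (0.0353). The 2 responses of Mcm5 were not shown to differ (difference 0.13 ± 0.06, adjusted p = 0.275). Mcm3 rose after NCS in 3KR MEFs by 0.10 (adjusted p = 0.0433), a call that leaving out any 3KR sample other than untreated replicate 3 ended (0.0606 to 0.198), as did library totals (0.302), no filter (0.131) and DESeq2 (0.063). Mcm2 and Mcm6 passed the test for NCS in neither genotype. Mcm4 did not pass in 3KR MEFs (0.09, adjusted p = 0.0515), but passed there with the culture as a block (0.0116), with at least 10 counts (0.0343), with only the samples compared (0.00888) and without NCS-treated 3KR replicate 1 (0.0444) or wild-type replicate 3 in both treatments (0.00934).

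Per length, with CPM here scaled by TMM-adjusted library sizes, the helicase subunits were not equal. In untreated wild-type MEFs Mcm4 had the highest level at 20.9 ± 0.487 CPM per kb of exon and Mcm2 the lowest at 8.39 ± 0.566 (SD, n = 3), while Mcm3, Mcm5, Mcm6 and Mcm7 lay between 13.1 and 14.5 CPM per kb, where neighbours in the order differed by less than the sum of their SDs. In untreated 3KR MEFs Mcm4 and Mcm2 were again the highest and lowest, at 26.3 and 10.6 CPM per kb. The union of annotated exons was 6956 bases in Mcm2, against 3589 (Mcm4) to 4666 (Mcm6) for the other subunits. By mean normalized read count in untreated wild-type MEFs, Mcm2 (2224) was above Mcm3 (2072) and Mcm5 (1994). It was below Mcm4 (2860), Mcm6 (2493) and Mcm7 (2359). The low place of Mcm2 thus depends on the annotated length, and the length of the expressed mRNA was not tested.

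Among the 7 genes that turn the loaded helicase into a moving fork and its relatives, 6 were higher in untreated 3KR MEFs and 7 after NCS. Mcm10, a scaffold of the activated helicase, stood at 414, 431 and 498 in untreated and 488, 535 and 576 in NCS-treated wild-type MEFs, and at 580, 586 and 650 followed by 754, 674 and 741 in 3KR MEFs. Untreated and treated wild-type samples overlapped and the genotypes did not. It was higher in 3KR MEFs by 0.44 ± 0.08 (adjusted p = 7.22e-05) without treatment and by 0.44 ± 0.08 (adjusted p = 4.35e-05) after NCS. NCS raised Mcm10 by 0.25 ± 0.08 (adjusted p = 0.021) in wild-type and by 0.26 ± 0.08 (adjusted p = 0.0111) in 3KR MEFs. Neither of these NCS calls was stable: in wild-type MEFs it was lost without untreated replicate 1 (0.123) or 2 (0.0759) or NCS-treated replicate 2 (0.0558) or 3 (0.103), and also with library totals (0.0609) or only the samples compared (0.0702), and in 3KR MEFs without untreated replicate 1 (0.056) or 2 (0.0511) or NCS-treated replicate 1 (0.0618).

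Mcm8 encodes a helicase that acts in homologous recombination rather than in licensing. It stood at 239, 261 and 261 normalized read counts in untreated and 201, 189 and 223 in NCS-treated wild-type MEFs, and at 341, 346 and 296 followed by 288, 307 and 266 in 3KR MEFs. The treated wild-type samples were the lowest of the 12. The fall in wild-type MEFs was -0.31 ± 0.10 (adjusted p = 0.0197) and was lost without untreated replicate 2 (0.0624) or NCS-treated replicate 1 (0.0536) or 2 (0.0983), and in 3KR MEFs the change of -0.19 did not pass. Mcm8 was higher in 3KR MEFs by 0.36 without treatment and by 0.49 after NCS.

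The 4 GINS subunits and Cdc45, which join MCM2-7 in the active helicase, were higher in 3KR MEFs after NCS, by 0.19 (Gins2) to 0.48 (Gins1). Without treatment Cdc45, Gins1, Gins3 and Gins4 passed, with log2 fold changes of 0.24 to 0.33, whereas Gins2 differed by -0.03 ± 0.06. These were among the less certain calls. Gins3 was lost untreated without untreated wild-type replicate 1 (0.233) or 3 (0.101) or any untreated 3KR sample (0.0692 to 0.099), with DESeq2 (0.0632), at least 10 counts (0.054) or wild-type replicate 3 left out of both treatments (0.0521), and after NCS without NCS-treated 3KR replicate 1 (0.0522). Gins1 was lost untreated without untreated wild-type replicate 2 (0.121) or untreated 3KR replicate 1 (0.0998), Cdc45 untreated without untreated 3KR replicate 3 (0.0537), and Gins2 after NCS without NCS-treated wild-type replicate 3 (0.0867) or NCS-treated 3KR replicate 1 (0.079). The NCS change of Gins2 in 3KR MEFs, 0.15 (adjusted p = 0.088), passed with the culture as a block (0.0272), with only the samples compared (0.0182) and without wild-type replicate 3 in both treatments (0.0218). In Gins2, 2758 exonic bases overlap Gse1 on the opposite strand.

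**Figure D3:**
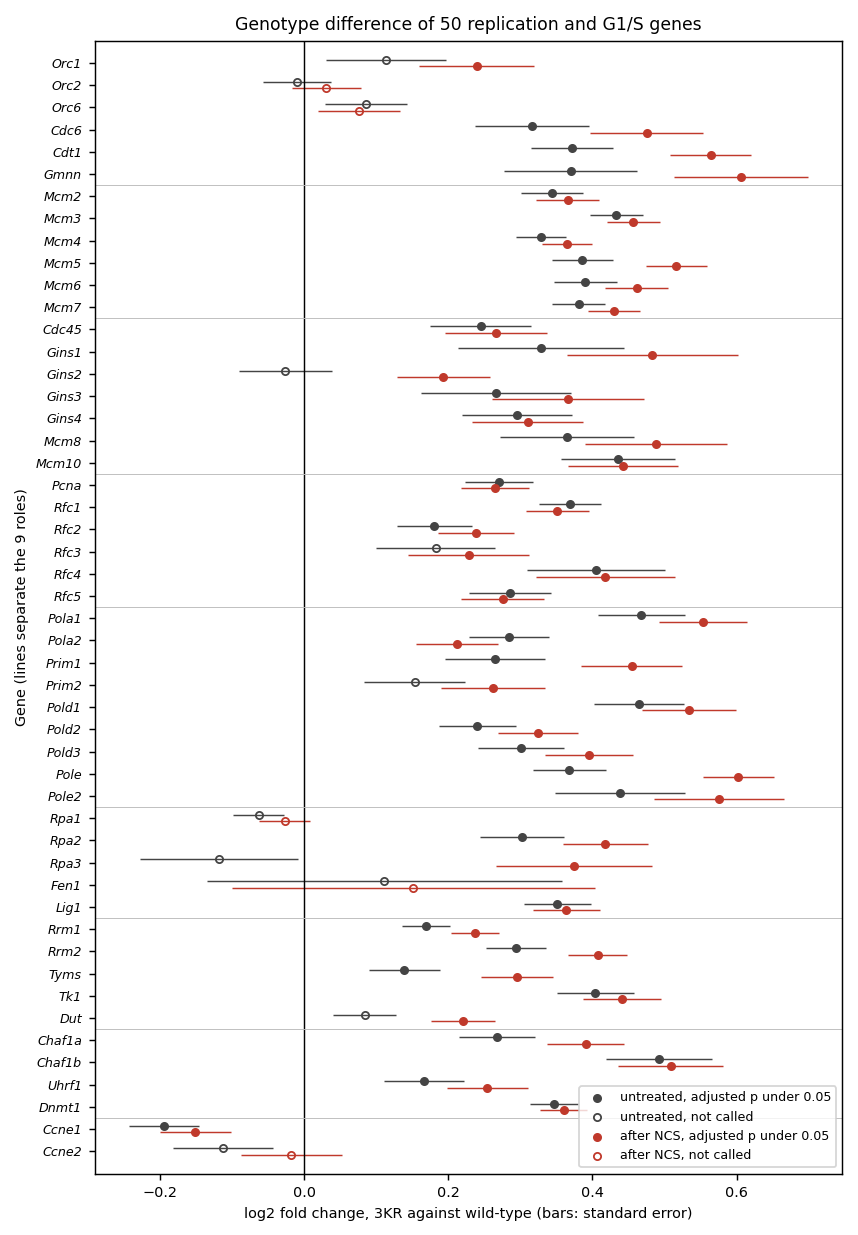
Difference between 3KR and wild-type MEFs for each member. The x axis is the log2 fold change between the genotypes (positive where 3KR was higher) with its standard error, grey for untreated and red for NCS-treated MEFs, filled where the adjusted p in edgeR was under 0.05 and open where it was not. The 6 MCM subunits lie close together between 0.33 and 0.52, while Orc2, Rpa1, Ccne1 and Ccne2 lie at or below 0.04 in both treatments.

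The sliding clamp PCNA and the replication factor C (RFC) subunits that load it were higher in 3KR MEFs in 5 of 6 cases without treatment and in 6 of 6 after NCS. Pcna differed by 0.27 ± 0.05 (adjusted p = 4.36e-05) without treatment, from 2932, 3027 and 2628 to 3376, 3558 and 3469 normalized read counts, and by 0.27 ± 0.05 (adjusted p = 5.56e-05) after NCS, from 3156, 3203 and 2876 to 3639, 3713 and 3750. Every 3KR sample was above every wild-type sample of the same treatment. Pcna, which is also a target of p53, did not pass the test for NCS in wild-type (adjusted p = 0.122) or 3KR MEFs (0.128), with a change of 0.10 in each. In wild-type MEFs it passed with the culture as a block (0.00584) and without untreated replicate 2 (0.0494), NCS-treated replicate 3 (0.0167) or replicate 3 in both treatments (0.0351). In 3KR MEFs it passed with the block (0.00657), with only the samples compared (0.00515) and without wild-type replicate 3 (0.00491). Processed copies of the gene (Pcna-ps1 and Pcna-ps2) are annotated, so its reads may be shared with them.

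Rfc1, the large subunit of the loader, was the member of this group that fell after NCS. It stood at 2069, 2121 and 2292 in untreated and 1977, 1976 and 2027 in NCS-treated wild-type MEFs, and at 2765, 2733 and 2897 followed by 2444, 2637 and 2552 in 3KR MEFs. Treated samples were below untreated samples in each genotype, and all 3KR samples were above all wild-type samples. The fall was -0.12 ± 0.04 (adjusted p = 0.0454) in wild-type MEFs, not called without untreated replicate 2 (0.0595) or 3 (0.203) or NCS-treated replicate 1 (0.107) or 2 (0.118) or replicate 3 in both treatments (0.105), nor with DESeq2 (0.0647), its size factors (0.0536) or only the samples compared (0.0602). In 3KR MEFs it was -0.14 ± 0.04 (adjusted p = 0.0164), not called without untreated replicate 3 (0.102) or NCS-treated replicate 1 (0.106). Rfc4 showed the largest genotype difference of the loader, 0.41 and 0.42. Rfc3 was called after NCS but not without treatment (0.0762), and its call was lost without NCS-treated wild-type replicate 3 (0.187), replicate 3 in both treatments (0.127) or any NCS-treated 3KR sample (0.0528 to 0.0794), while the call of Rfc2 without treatment was lost without untreated 3KR replicate 1 (0.0521).

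All 9 primase and polymerase genes were higher in 3KR MEFs after NCS and 8 of them also without treatment, with median log2 fold changes of 0.45 and 0.30. Prim2 was the exception, at 0.15 (adjusted p = 0.0802) without treatment and 0.26 (adjusted p = 0.0044) after NCS. Pola1, the catalytic subunit of polymerase alpha, was higher by 0.47 ± 0.06 (adjusted p = 7.74e-07) without treatment, with 743, 728 and 833 normalized read counts in wild-type and 1147, 1014 and 1036 in 3KR MEFs, and by 0.55 ± 0.06 (adjusted p = 6.7e-08) after NCS. The groups did not overlap. Pola1 lies on the X chromosome, and the part of the sex in its difference was not tested, whereas its partner Pola2 lies on an autosome and was higher by 0.28 and 0.21.

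The catalytic subunits of the polymerases of the lagging and the leading strand had different NCS responses. Pold1, of polymerase delta, stood at 880, 949 and 863 in untreated and 660, 710 and 760 in NCS-treated wild-type MEFs, and at 1217, 1328 and 1185 followed by 985, 1121 and 983 in 3KR MEFs. Treated samples were below untreated samples in each genotype, and the lowest treated 3KR sample was above every wild-type sample. NCS lowered Pold1 in wild-type MEFs (log2 fold change -0.34 ± 0.07, adjusted p = 0.000395) and in 3KR MEFs (-0.27 ± 0.06, adjusted p = 0.00178), and 3KR exceeded wild-type MEFs by 0.46 ± 0.06 (adjusted p = 1.45e-06) without treatment and by 0.53 ± 0.07 (adjusted p = 4.14e-07) after NCS. Its partners Pold2 and Pold3 had NCS changes of -0.14 and -0.16 in wild-type MEFs, which did not pass (adjusted p = 0.0672 and 0.0629). Both passed with the culture as a block (0.0468 for each), with library totals (0.0127 and 0.0139), with at least 10 counts (0.0379 and 0.0364) and without NCS-treated wild-type replicate 2 (0.0413 and 0.0484), and Pold3 also without untreated wild-type replicate 1 (0.0313).

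Pole, of polymerase epsilon, stood at 852, 843 and 921 in untreated and 888, 922 and 897 in NCS-treated wild-type MEFs, and at 1139, 1129 and 1119 followed by 1360, 1422 and 1330 in 3KR MEFs. The wild-type groups overlapped, while in 3KR MEFs all treated samples were above the untreated samples. NCS raised Pole in 3KR MEFs by 0.28 ± 0.05 (adjusted p = 9.41e-05), against 0.05 ± 0.05 (adjusted p = 0.563) in wild-type MEFs. Pole was higher in 3KR MEFs by 0.37 ± 0.05 (adjusted p = 1.71e-06) without treatment and by 0.60 ± 0.05 (adjusted p = 5.62e-10), or 1.52-fold, after NCS. Pola2 had a fall after NCS in 3KR MEFs (log2 fold change -0.17, adjusted p = 0.0203), a call that was lost without untreated replicate 2 (0.0837) or NCS-treated replicate 2 (0.0584) or 3 (0.0885).

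**Figure D4:**
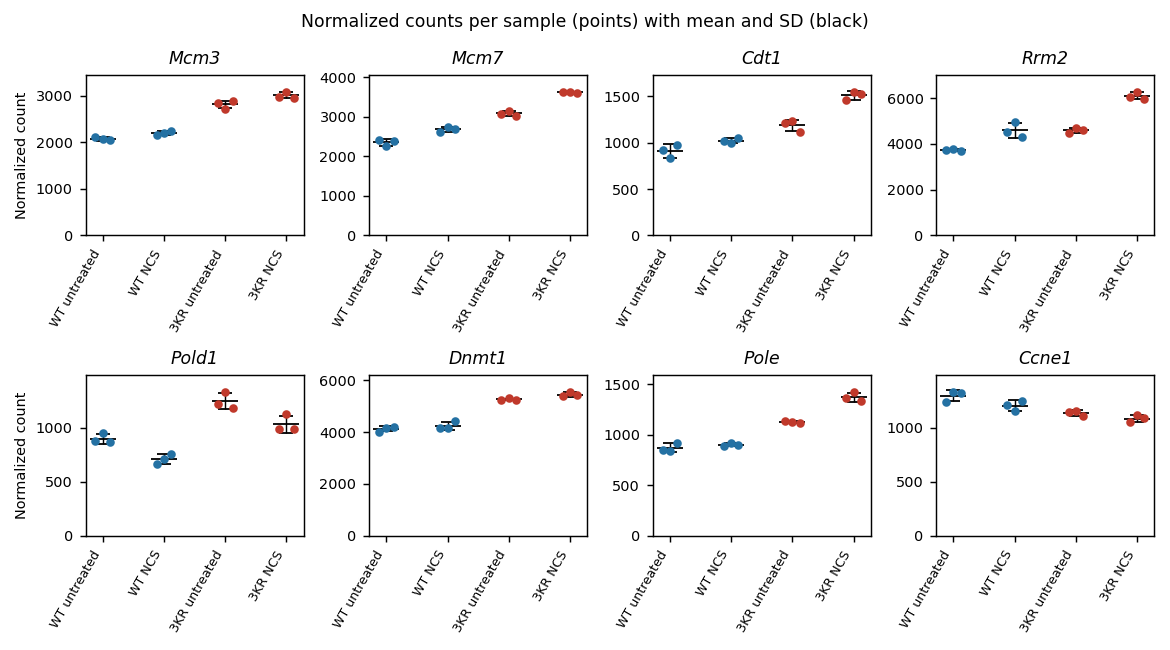
Normalized read counts of 8 members in each sample. Points are samples (blue, wild-type; red, 3KR), the black bars give the mean and SD of each group of 3, and every y axis starts at 0. Mcm3, Mcm7 and Dnmt1 are separated by genotype, Rrm2 and Cdt1 rise after NCS in both genotypes, Pold1 falls in both, and Ccne1 is lowest in NCS-treated 3KR MEFs.

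The mRNAs of the subunits of the single-strand binding protein RPA did not behave alike. Rpa1, its largest subunit, passed in no comparison, except for NCS in wild-type MEFs with library totals (-0.12, adjusted p = 0.0125), and differed between genotypes by -0.06 and -0.03. Rpa2 was higher in 3KR MEFs by 0.30 ± 0.06 (adjusted p = 0.000151) without treatment, with 998, 982 and 924 normalized read counts in wild-type and 1144, 1210 and 1245 in 3KR MEFs, and by 0.42 ± 0.06 (adjusted p = 3.34e-06) after NCS, with 868, 889 and 888 in wild-type and 1082, 1294 and 1164 in 3KR MEFs. The groups did not overlap in either treatment. The NCS change of Rpa2 in wild-type MEFs, -0.14, did not pass (adjusted p = 0.0888), but passed with the culture as a block (0.0376), with library totals (0.0228), without untreated wild-type replicate 3 (0.0407) and without replicate 3 in both treatments (0.0262).

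Rpa3, the smallest subunit, had uneven wild-type samples. It stood at 430, 436 and 303 in untreated and 399, 380 and 315 in NCS-treated wild-type MEFs, and at 364, 335 and 386 followed by 489, 474 and 456 in 3KR MEFs. Replicate 3 was the lowest wild-type sample in each treatment, and the NCS-treated 3KR samples were the highest of the 12. NCS raised Rpa3 in 3KR MEFs by 0.39 ± 0.11 (adjusted p = 0.00832), and 3KR exceeded wild-type MEFs after NCS by 0.37 ± 0.11 (adjusted p = 0.00652). Without treatment the difference was -0.12 ± 0.11 (adjusted p = 0.407), and -0.26 (adjusted p = 0.00802) when wild-type replicate 3 was left out of both treatments. The NCS change in wild-type MEFs was -0.11 (adjusted p = 0.535), and -0.25 (0.0378) without untreated replicate 3.

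DNA ligase 1 (Lig1), which seals Okazaki fragments, was higher in 3KR MEFs by 0.35 and 0.36 in the 2 treatments. Its NCS changes of 0.10 in wild-type and 0.12 in 3KR MEFs did not pass (adjusted p = 0.114 and 0.0587). The former passed without replicate 3 in both treatments (0.0158) or without its NCS-treated sample (0.0339), and the latter with the culture as a block (0.0292), with only the samples compared (0.0143), with at least 10 counts (0.0398) and without wild-type replicate 3 in both treatments (0.0176). The flap endonuclease gene Fen1 had only 29.5 to 57.2 normalized read counts per sample, and 2039 of its 2422 exonic bases overlap Tmem258 and Gm10143 on the opposite strand. Its level of 0.438 CPM per kb in untreated wild-type MEFs was the lowest of the 50 members, and it passed in no comparison.

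Of the genes that supply nucleotides, 4 of 5 were higher in untreated 3KR MEFs and 5 of 5 after NCS. Rrm2, the regulatory subunit of ribonucleotide reductase, which makes deoxyribonucleotides and whose level follows S phase, was the member most clearly raised by NCS. It stood at 3747, 3782 and 3702 in untreated and 4546, 4960 and 4311 in NCS-treated wild-type MEFs, and at 4501, 4716 and 4609 followed by 6062, 6284 and 5987 in 3KR MEFs. Treated samples were above untreated samples in each genotype, and untreated 3KR samples lay within the range of treated wild-type samples. The rise was 0.30 ± 0.04 (adjusted p = 7.83e-06) in wild-type and 0.41 ± 0.04 (adjusted p = 4.03e-08) in 3KR MEFs, and the difference between them, 0.11 ± 0.06, did not pass (adjusted p = 0.342). At 35.5 CPM per kb in untreated wild-type MEFs, Rrm2 was also the member with the highest level per length, followed by Pcna at 31.3.

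The catalytic subunit Rrm1 was higher in 3KR MEFs by 0.17 without treatment and by 0.24 after NCS, and rose after NCS in 3KR MEFs by 0.12 ± 0.03 (adjusted p = 0.00786), a call lost with library totals (0.0707). In wild-type MEFs its change of 0.05 did not pass (adjusted p = 0.279), but passed without replicate 3 in both treatments (0.10, adjusted p = 0.00148) or without untreated replicate 3 (0.0498). Thymidine kinase 1 (Tk1), of the salvage pathway, differed by 0.40 ± 0.05 (adjusted p = 1.17e-06) and 0.44 ± 0.05 (adjusted p = 4.17e-07) between genotypes and passed for NCS in neither. Thymidylate synthase (Tyms) and dUTPase (Dut), which make dTMP and clear dUTP, had smaller genotype differences, 0.14 and 0.08 without treatment and 0.30 and 0.22 after NCS, of which that of Dut without treatment did not pass. Both rose after NCS in 3KR MEFs, Tyms by 0.17 (adjusted p = 0.0102) and Dut by 0.12 (adjusted p = 0.0353). The rise of Tyms was lost without NCS-treated 3KR replicate 1 (0.0514) or with library totals (0.0564) and its untreated genotype difference without untreated wild-type replicate 3 (0.107) or untreated 3KR replicate 2 (0.0724) or 3 (0.0643). The rise of Dut was lost without any 3KR sample other than untreated replicate 2 (0.0538 to 0.117), with library totals (0.2) or with no filter (0.062).

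The 4 genes that rebuild chromatin behind the fork were higher in 3KR MEFs in both treatments. Dnmt1, the maintenance DNA methyltransferase, had 4012, 4166 and 4189 normalized read counts in untreated and 4154, 4153 and 4432 in NCS-treated wild-type MEFs, compared with 5250, 5303 and 5236 and then 5377, 5547 and 5427 in 3KR MEFs. All 6 3KR samples were above all 6 wild-type samples, and NCS changed Dnmt1 beyond the threshold in neither genotype. The differences were 0.35 ± 0.03 (adjusted p = 5.63e-09) and 0.36 ± 0.03 (adjusted p = 3.43e-09). The chromatin assembly factor subunits Chaf1a and Chaf1b were higher by 0.27 and 0.49 without treatment and by 0.39 and 0.51 after NCS, and in Chaf1a 4648 exonic bases overlap Ubxn6 on the opposite strand.

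Uhrf1, which guides DNMT1 to hemimethylated DNA, stood at 1630, 1596 and 1829 in untreated and 1405, 1537 and 1574 in NCS-treated wild-type MEFs, and at 1810, 1990 and 1891 followed by 1790, 1703 and 1891 in 3KR MEFs. The untreated wild-type samples overlapped with the 3KR samples. NCS lowered it in wild-type MEFs (-0.16 ± 0.06, adjusted p = 0.0326), a call lost without untreated replicate 3 (0.159) or NCS-treated replicate 1 (0.175) or in a fit of the compared groups alone (0.0531). It was higher in 3KR MEFs by 0.17 ± 0.06 (adjusted p = 0.0168) without treatment, a call lost without untreated wild-type replicate 1 (0.0717) or 2 (0.0926) or untreated 3KR replicate 2 (0.0972), and by 0.25 ± 0.06 (adjusted p = 0.000703) after NCS.

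The E-type cyclins, which activate CDK2 at the G1/S boundary and are classical E2F targets, did not pass as higher in 3KR MEFs in either treatment. Ccne1 stood at 1239, 1328 and 1317 in untreated and 1213, 1151 and 1246 in NCS-treated wild-type MEFs, and at 1147, 1154 and 1104 followed by 1048, 1112 and 1091 in 3KR MEFs. In each treatment all 3KR samples were below all wild-type samples. Ccne1 was lower in 3KR MEFs by -0.19 ± 0.05 (log2 fold change, adjusted p = 0.00197) without treatment and by -0.15 ± 0.05 (adjusted p = 0.0154) after NCS, and the second call was lost without NCS-treated wild-type replicate 3 (0.0767), replicate 3 in both treatments (0.051) or NCS-treated 3KR replicate 1 (0.0779). Ccne2 differed by -0.11 ± 0.07 (adjusted p = 0.202) without treatment, and by -0.19 (adjusted p = 0.00911) with wild-type replicate 3 left out of both treatments. NCS changed neither cyclin beyond the threshold, except Ccne1 in wild-type MEFs with library totals (-0.16, adjusted p = 0.0172).

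The genotypes were next compared for their response to NCS. No member passed the edgeR test of this difference, where 3.73% of all tested genes did, 1.86% with a higher and 1.87% with a lower response in 3KR MEFs. DESeq2 also called 0 members after adjustment. The estimates leaned to 1 side: 45 of 50 were positive, meaning a higher or less reduced level after NCS in 3KR MEFs, with a median of 0.07, compared with 51% of all tested genes. The lowest p values belonged to Pole (0.23 ± 0.07, adjusted p = 0.0681), Rpa3 (0.49 ± 0.15, adjusted p = 0.0793), Gins2 (0.22 ± 0.09, adjusted p = 0.218), Cdt1 (0.19 ± 0.08, adjusted p = 0.22) and Tyms (0.16 ± 0.07, adjusted p = 0.267). Gins2 stood at 923, 928 and 808 in untreated and 923, 844 and 774 in NCS-treated wild-type MEFs, and at 875, 876 and 876 followed by 1003, 937 and 963 in 3KR MEFs. Tyms stood at 1480, 1500 and 1368 and then 1469, 1557 and 1380 in wild-type MEFs, and at 1581, 1621 and 1608 and then 1841, 1841 and 1731 in 3KR MEFs. In both genes treated 3KR samples were above untreated 3KR samples, while the wild-type groups overlapped.

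The difference in response depended on the fit for Rpa3, Pole and Gins2. With the culture as a block, Pole (adjusted p = 0.0312) and Rpa3 (0.00464) passed. Without untreated wild-type replicate 3, Rpa3 (0.64, adjusted p = 0.00108) and Gins2 (0.28, adjusted p = 0.044) passed, and without wild-type replicate 3 in both treatments Rpa3 did (0.54, adjusted p = 0.000584). Across the 50 members, the responses in wild-type and 3KR MEFs, which share no samples, had a Pearson correlation of 0.795 over genes, which are not independent replicates, compared with 0.452 over all tested genes. The correlation was higher still over 26 G2/M and mitosis genes (0.957) and over 47 other genes of replication and S phase (0.859). These sets of genes were not matched for expression level, so the value over all tested genes is not a matched background.

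**Figure D5:**
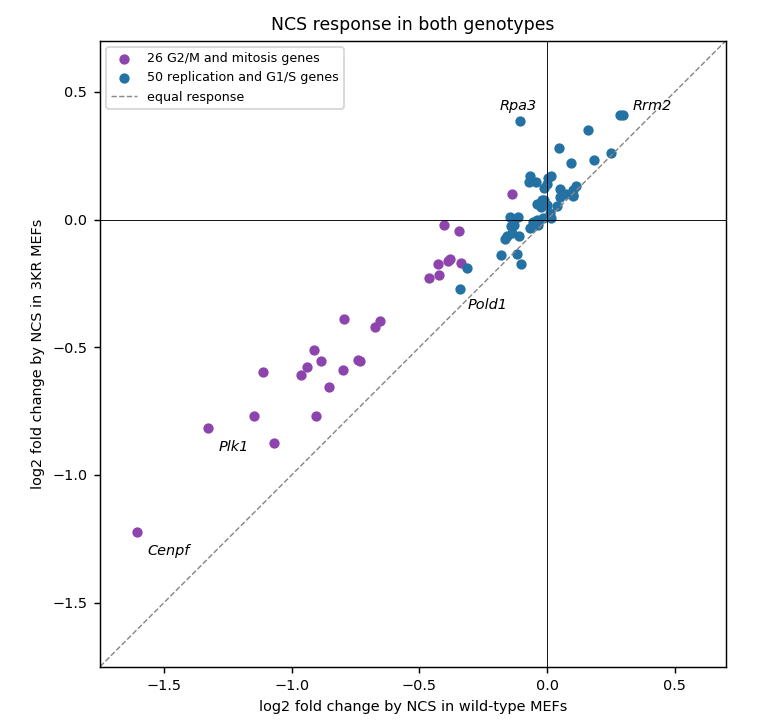
Log2 fold change by NCS in wild-type MEFs (x axis) and in 3KR MEFs (y axis) for the 50 members (blue) and for 26 G2/M and mitosis genes (purple), with a dashed line where the responses are equal. The members lie near 0, from -0.34 to 0.30 in wild-type MEFs, whereas the G2/M genes extend to -1.60, and most points lie above the dashed line.

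Of 47 other genes of replication and S phase, 27 were higher and 2 lower in untreated 3KR MEFs (median log2 fold change 0.17), and 33 were higher and 0 lower after NCS (median 0.28). Among those with the lowest p without treatment were the deubiquitinase gene Usp1 (0.41), the checkpoint mediator Clspn (0.43) and Cdca7 (0.49). After NCS they were Ccna2, Usp1, Clspn and Ticrr, the last a factor of origin firing, at 0.76. The exceptions without treatment were Cdc25a, the phosphatase that activates CDK2, at -0.25, and Top1, which relaxes DNA, at -0.09; both were singled out after their values were seen. In wild-type MEFs, 2 of the 47 rose and 18 fell after NCS, and in 3KR MEFs 8 rose and 10 fell. Ccna2, the S and G2 cyclin, fell from 2626, 2769 and 2845 to 1620, 1530 and 1481 normalized read counts in wild-type MEFs and from 3410, 3420 and 3280 to 2269, 2306 and 2360 in 3KR MEFs. All treated samples of both genotypes were below all untreated samples, and the fall was -0.83 ± 0.04 (adjusted p = 6.06e-13) in wild-type and -0.54 ± 0.04 (adjusted p = 4.82e-10) in 3KR MEFs. Msh6 rose by 0.49 in wild-type and 0.32 in 3KR MEFs, Dbf4, the activator of the CDC7 kinase, fell by 0.42 and 0.33 on the log2 scale, Ung, the uracil glycosylase, changed by -0.72 and -0.77, and Usp1 by -0.34 and -0.29.

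Genes of G2/M and mitosis, which act after replication, were read beside the members without a test between the lists. Of 26 such genes, 25 fell in wild-type MEFs (median log2 fold change -0.77) and 23 in 3KR MEFs (median -0.53), and 0 rose in either, where the members had 5 and 4 falls. Between genotypes the 2 lists went the same way: 23 of the 26 were higher in untreated 3KR MEFs (median 0.24) and 26 after NCS (median 0.53), while 0 were lower. Cdkn1a, the CDK inhibitor induced by p53, was 17387 ± 538 normalized read counts in untreated wild-type and 39438 ± 487 in NCS-treated wild-type MEFs, and 9816 ± 75.4 and 24824 ± 303 in 3KR MEFs (SD, n = 3). It was lower in 3KR MEFs in both treatments (-0.83 without treatment and -0.67 after NCS), with an adjusted p of 2.86e-17 and 1.65e-15.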

How the data were processed

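Bulk RNA-seq was available for 12 MEF samples in 4 groups of 3, which were assigned from the labels together with a replicate number. The authors deposited 1 table of raw counts per sample, whole numbers of reads per Ensembl gene without normalization. The libraries were made with a stranded mRNA kit, and the submitters' processing notes name TopHat, HTSeq, DESeq and the build mm9 without versions. The strand setting of the counting is not given in the sources used here, so genes that overlap on opposite strands may share or lose reads.

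Counts were filtered with filterByExpr, normalized by TMM and fitted with edgeR 4.0.16 (quasi-likelihood F test) in R 4.3.3, with 1 coefficient per group and all 12 samples. The p-values were two-sided and adjusted by the Benjamini-Hochberg method over 15327 genes, with a threshold of 0.05. Normalized read counts were obtained with DESeq2 1.42.0 size factors. Levels per length are CPM divided by the union of exons of the gene in GENCODE M21 (GRCm38), in which 32938 of 37991 identifiers were found. No coordinates were converted between builds, and start-site windows and sequences came from RefSeq (GRCm38.p6). The floor of 3 counts covers counting error only. Both tools were also tested on simulated data. In these every gene had the same spread and no sample stood apart, unlike wild-type replicate 3 here.

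In wild-type MEFs, untreated and NCS-treated samples of equal number had correlated deviations from the group mean (0.267, 0.234 and 0.468 over 9602 genes). Replicates 1 and 2 correlated about as much across unequal numbers (0.223 and 0.236), and only replicate 3 stood apart. Equal numbers were therefore not shown to mark a shared culture. The fit with samples of equal number taken as 1 culture (the culture as a block) is given where it changes a call of a member. The alternatives were size factors of DESeq2 or library totals in place of TMM, the Wald test of DESeq2, no filter, a minimum of 10 counts per sample, a fit on the compared groups alone, a replicate block, each sample left out in turn, and wild-type replicate 3 left out in both treatments.

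The members and the other gene lists were chosen with earlier results of these data known. Every member may be named. The values of each sample are given for up to 5 members per direction with the lowest p among those passing in each comparison of groups, for the 5 members with the lowest p for the difference in response, and for the member of each role with the lowest p for NCS in wild-type MEFs. A few more were added after their values were seen, such as Pcna and Pola1. Of the other lists, up to 4 genes per comparison are named, with E2f1, Cdkn1a, Xist and Ddx3y as checks. A result that this rule allows is not reported here.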

Additional observations from a re-analysis of the deposited data

Results flagged for a closer look

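The genes named here had a test of the difference between genotypes in the NCS response that passed the threshold (edgeR, adjusted over 15327 genes), and groups of 3 samples are too small for a test of single samples that stand apart. The differences are the NCS response in 3KR MEFs minus that in wild-type MEFs on the log2 scale. Of the genes of replication and S phase outside the 50 members, Ccna2 had a difference of 0.293 (adjusted p = 0.0049), since it changed by -0.83 in wild-type and by -0.54 in 3KR MEFs, and E2f7, a repressor of the E2F family, had 0.360 (adjusted p = 0.0478), with -0.10 in wild-type and 0.26 in 3KR MEFs. The call of E2f7 was lost in each of 11 alternatives, among them the size factors of DESeq2 (0.0545), library totals (0.0539) and the omission of any single sample other than replicate 3 of untreated or NCS-treated wild-type and of NCS-treated 3KR MEFs (0.0536 to 0.171).

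Of the G2/M and mitosis genes, Plk1 had a difference of 0.511 (-1.33 in wild-type and -0.82 in 3KR MEFs), Ube2c of 0.383 (-0.40 and -0.02), Aurka of 0.514 (-1.11 and -0.60) and Kif11 of 0.360 (-0.94 and -0.58). All 26 genes of this list had a positive difference and 17 of them passed the test, compared with 45 and 0 of the 50 members. Cdkn1a had a difference of 0.163 (adjusted p = 0.0189), with 1.18 in wild-type and 1.34 in 3KR MEFs, and the call was lost without NCS-treated wild-type replicate 1 (0.0601), untreated 3KR replicate 1 (0.0648) or NCS-treated 3KR replicate 1 (0.0548) or 3 (0.0679).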

How the results depend on the processing

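The differences between genotypes were the most stable results. Of the 39 members called without treatment 33 were called in every alternative, and of the 45 called after NCS 40 were. For NCS the numbers were 4 of 10 in wild-type and 8 of 16 in 3KR MEFs, and no call of a member in these comparisons reversed its direction. The number of members changed by NCS in wild-type MEFs fell from 10 to 6 with only the samples compared, and ranged from 6 to 11 when single samples were left out, 6 without untreated wild-type replicate 2. With a minimum of 10 counts it split into 4 higher and 7 lower, and it held 8 rises in place of 5 without wild-type replicate 3 in both treatments. The difference in response went from 0 members to 1 with no filter (Rpa3), to 1 with at least 10 counts in every sample (Pole), to 1 without wild-type replicate 3 in both treatments (Rpa3), and to 0 to 2 when single samples were left out, 2 (Gins2 and Rpa3) without untreated wild-type replicate 3. With the culture as a replicate block the difference in response was called for 2 members (Pole and Rpa3), NCS in wild-type MEFs for 14 (6 higher and 8 lower) and NCS in 3KR MEFs for 20. In 3KR MEFs the numbers do not pair the samples, with correlations of 0.00102, 0.0502 and 0.00241, nor do they between genotypes (-0.0305 to 0.0234). A block by replicate number called 40 members without treatment, adding Rfc3, and 45 after NCS. The cause of these changes was not tested.

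Fen1 had only 31 to 49 raw counts per sample. The part of depth and of its overlap with genes on the opposite strand in this low count was not tested. Gins1, with 140 raw counts or more, had a standard error of 0.11 to 0.17. Of 84 normalized levels that were rescaled, 82 moved by less than 1 SD with TMM and 69 with library totals.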
